A study of Homo sapiens with 6 samples.

Results

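The transcription factor NRF2 (gene NFE2L2), its inhibitor KEAP1, 6 enzymes that NRF2 is known to drive (NQO1, HMOX1, GCLM, GCLC, TXNRD1 and SRXN1) and the superoxide dismutases SOD1 and SOD2 were followed in MDA-MB-231 cells, a line derived from metastatic, estrogen receptor-negative human breast cancer. Members were all probe sets annotated to exactly 1 of these 10 symbols, a probe set being a group of short oligonucleotides that reads a stretch of a transcript. This gave 21 probe sets for 9 of the 10 genes, among 18132 genes with a probe set of their own. SOD2, the manganese superoxide dismutase of mitochondria, could not be described, because each of its 4 probe sets also carries the symbol of the overlapping transcript SOD2-OT1.

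The cells carried a control vector delivered by lentivirus (negative control, NC; 3 samples) or a lentivirus with the full-length coding sequence of CTCF, a chromatin insulator protein (CTCF-OE, 3 samples), and both populations expressed their vector stably. The parental line was not analysed here, and the sources used here do not say whether the stable cells were pools or clones. Total RNA from each sample was read by 1 Affymetrix PrimeView array, and the median intensity lay between 83.3 and 84.5 in the 6 arrays. The study's statistics speak of independent experiments in general, but no source used here says whether the 3 arrays of a group came from separate cultures, so p-values measure the spread between these samples only, which may be technical.

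The single CTCF probe set ran against the labels. Its intensity was 463, 442 and 489 with the NC label and 399, 388 and 399 with the CTCF-OE label (adjusted p = 0.0639 from limma), and whether it covers the transgene is not given. CTCF protein, which the study examined in these cells by western blotting, was not measured in the arrays. Every direction below is therefore that of the arrays labelled CTCF-OE, abbreviated CTCF-OE, against NC. Among markers of the line, VIM read 14020 ± 240 (SD, n = 3) in the NC arrays, whereas CDH1 and PGR, which mark luminal cells, read 13.8 and 8.32. Of the other luminal markers, KRT19 read 3418, EPCAM 458 and GATA3 346 in the NC arrays. None of the 9 luminal markers was called at an adjusted p under 0.05 in limma, and of the 6 basal markers EGFR was, as lower. Over all genes, 2.12% were called, 0.722% higher and 1.4% lower.

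Cells meet reactive oxygen species with enzymes that are partly held in reserve. KEAP1 is an adaptor of a CUL3 ubiquitin ligase that marks NRF2 for destruction. Oxidants and electrophiles modify cysteines of KEAP1, NRF2 then accumulates, pairs with a small MAF protein and binds antioxidant response elements of its target genes. Because NRF2 is controlled mainly through protein stability, its activity is usually read from the mRNA of its targets and not from its own. Superoxide dismutases act one step earlier and convert superoxide to hydrogen peroxide.

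Antioxidant response elements share the core TGACNNNGC. Stretches of 4 promoters are shown because they place this core, or its looser form TGANNNNGC, before a start of a regulator and 3 targets whose mRNA is described below. RefSeq promoter windows (GRCh38.p14, 250 bases before to 50 after a gene start) were held for 7 of the 9 genes read. TGACNNNGC, searched on both strands, occurred in 13.3% of all 35116 windows, and in windows of GCLM, TXNRD1 and KEAP1. TGANNNNGC, which takes in every match of the stricter core, occurred in 41.8%, NQO1 and NFE2L2 included. Windows of the targets GCLC and SRXN1 held neither form. Bases outside the windows were not searched for any gene, so elements farther from a start would be missed. Sequences run 5′ to 3′ on the strand of the gene. Capitals mark TGACNNNGC in GCLM, TXNRD1 and KEAP1 and TGANNNNGC in NQO1, each on the opposite strand and so read as its reverse complement.
GCLM, chr1:93909431-93909680, minus strand: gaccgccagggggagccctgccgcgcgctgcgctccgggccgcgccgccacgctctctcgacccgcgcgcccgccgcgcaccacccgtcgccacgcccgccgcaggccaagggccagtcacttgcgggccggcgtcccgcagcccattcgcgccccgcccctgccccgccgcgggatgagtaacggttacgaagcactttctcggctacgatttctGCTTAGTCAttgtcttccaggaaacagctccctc
NQO1, chr16:69726561-69726810, minus strand: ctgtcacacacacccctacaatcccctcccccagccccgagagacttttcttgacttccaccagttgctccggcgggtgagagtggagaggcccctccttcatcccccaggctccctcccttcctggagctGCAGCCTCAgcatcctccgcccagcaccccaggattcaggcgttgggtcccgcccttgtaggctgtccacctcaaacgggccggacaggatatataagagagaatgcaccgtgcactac
TXNRD1, chr12:104286920-104286949, plus strand: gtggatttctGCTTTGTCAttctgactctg
KEAP1, chr19:10502783-10502812, minus strand: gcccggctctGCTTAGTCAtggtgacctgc

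The capitals lay 34 to 26 bases before the start in GCLM, 31 to 23 before the start in KEAP1, 102 to 94 in TXNRD1 and 119 to 111 in NQO1. GCLM and KEAP1 held the same 9 letters there. For TXNRD1 and KEAP1 the start used lies inside the annotated gene. A second TXNRD1 window, at the annotated gene start, also held the core, with TGACTTCGC 99 to 91 bases before it on the gene strand. In KEAP1 the same window held a further match on the gene strand, TGACACGGC, 54 to 46 bases before the start. These matches are letters in a window, not measured binding.

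Fold changes of the oxidant defence genes between the groups were small, though their median size was above that of all genes. In limma, 1 of the 21 member probe sets passed an adjusted p under 0.05, the second of NQO1, which was higher in CTCF-OE. None was lower, against a background of 2.08% of all 49293 probe sets called (0.803% higher and 1.27% lower). At the level of genes, each read by its brightest probe set, 0 of 9 passed (background 2.12%, 0.722% higher and 1.4% lower), and at an unadjusted p under 0.05, which 17.2% of all genes reached, NQO1 was higher and HMOX1 and SRXN1 were lower. The median size of the log2 fold change was 0.083 over the 9 genes and 0.058 over all genes. With an intensity trend in limma's variance model, NQO1 passed as higher and HMOX1 and SRXN1 as lower (adjusted p = 0.00151, 0.0140 and 0.0239), where 8% of all genes were called. No member probe set reached a 1.3-fold change, the fold threshold of the study's methods, which 0.637% of all probe sets passed together with the adjusted p. The 3 values of 1 group lay beyond the 3 of the other at 10 of the 21 member probe sets, 5 higher and 5 lower, and at 24.4% of all probe sets. Those 10 include both probe sets of NQO1 and all 3 each of HMOX1 and TXNRD1, so they are not separate genes. The 95% interval of the difference stayed within 1.3-fold in 8 of the 9 genes, with HMOX1 the exception. SDs are over 3 arrays, and intensities of different genes are not on a common scale.

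**Figure D1:**
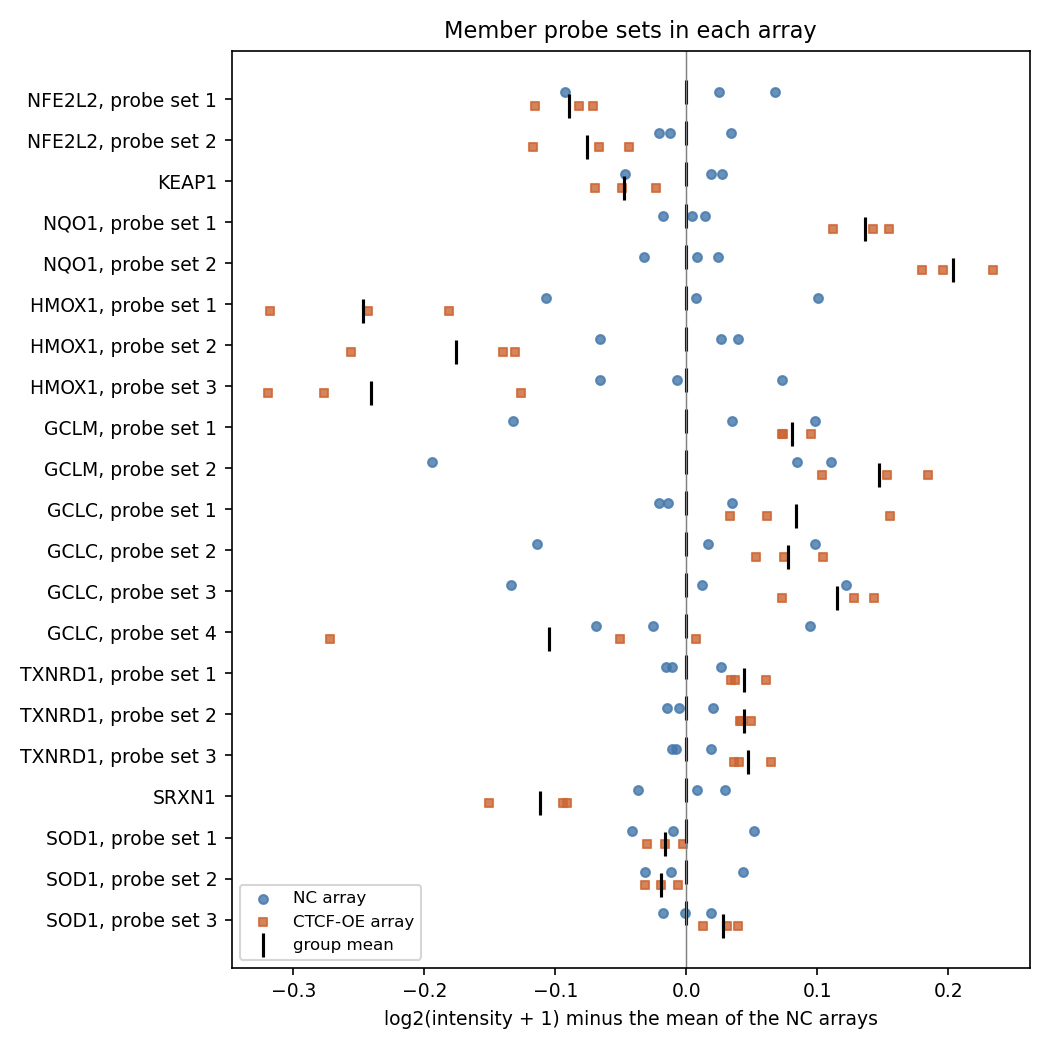
Each point is 1 array at 1 member probe set, on the horizontal axis as log2(intensity + 1) minus the mean of the 3 NC arrays, with circles for NC, squares for CTCF-OE and a vertical bar for the group mean. The NQO1 and TXNRD1 squares lie to the right of all circles and those of HMOX1 and SRXN1 to the left, whereas the SOD1 groups overlap.

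NQO1, a cytosolic reductase that carries quinones past the semiquinone state and is among the most used reporters of NRF2, was higher in CTCF-OE at both of its probe sets. The second probe set read 1036, 1078 and 1066 in NC and 1200, 1214 and 1247 in CTCF-OE. All CTCF-OE arrays lay above all NC arrays. The rise was 0.20 as a log2 fold change (standard error 0.038, adjusted p = 0.0493 from limma), or 1.15-fold. The brightest probe set read 2731, 2773 and 2792 in NC and 3053, 2989 and 3078 in CTCF-OE. The groups did not overlap there either, with a log2 difference of 0.14 (standard error 0.033, 95% interval 0.06 to 0.21) that did not pass (adjusted p = 0.0938 from limma over genes). The call at the second probe set rests on all 6 arrays: it was not made with any 1 of them left out (adjusted p from 0.0944 without NC replicate 2 to 0.182 without CTCF-OE replicate 3, limma), while the log2 difference stayed between 0.19 and 0.22. The fits with 1 array left out called 0.3% to 0.779% of all probe sets, beside 2.08% with all 6 arrays. The NQO1 call was also not made without a pseudocount (adjusted p = 0.0543 from limma) or with the methods' t-test (adjusted p = 0.061 after Benjamini-Hochberg).

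HMOX1, which breaks heme down to biliverdin, iron and carbon monoxide, read lower in CTCF-OE without passing the test. Its brightest probe set read 273, 291 and 252 in NC and 229, 218 and 239 in CTCF-OE. The lowest NC array lay above the highest CTCF-OE array, as it did at both other HMOX1 probe sets. The log2 difference was -0.25 (standard error 0.063, 95% interval -0.40 to -0.10, adjusted p = 0.111 from limma), the largest in size among the 9 genes. The others had -0.18 and -0.24. HMOX1 is also held down by the heme-binding repressor BACH1, whose brightest probe set read 48.9 ± 1.62 in NC and 48.4 ± 4.40 in CTCF-OE (SD, n = 3 each). BACH1 protein was not measured in the arrays, and whether BACH1 has a part in the HMOX1 difference was not tested.

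SRXN1, sulfiredoxin, which restores peroxiredoxins that peroxide has overoxidized, has 1 probe set. It read 1420, 1441 and 1376 in NC and 1272, 1323 and 1326 in CTCF-OE, without overlap. The log2 difference was -0.11 (standard error 0.037, 95% interval -0.20 to -0.02), and it did not pass (adjusted p = 0.192 from limma). NQO1, HMOX1 and SRXN1 are all classical NRF2 targets, and their differences, none of which passed at the level of genes, did not share a sign. A change of NRF2 activity was not tested.

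GCLC is the catalytic and GCLM the modifier subunit of glutamate-cysteine ligase, the enzyme of the rate-limiting step of glutathione synthesis, and neither passed the test. GCLM read 1580, 1407 and 1651 in NC and 1624, 1648 and 1623 in CTCF-OE at its brightest probe set, so that the CTCF-OE values lay inside the NC range. NC replicate 2 was the low array, and it was also the lowest at the other GCLM probe set, at 99.9 against 124 and 121 in the NC arrays beside it. The log2 difference of GCLM was 0.08 (standard error 0.061, 95% interval -0.06 to 0.23, adjusted p = 0.560 from limma), and 0.01 without NC replicate 2.

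GCLC read 286, 297 and 287 in NC and 323, 302 and 297 in CTCF-OE at its brightest probe set. The highest NC and lowest CTCF-OE arrays crossed by less than 1 unit. Its log2 difference was 0.08 (standard error 0.044, 95% interval -0.02 to 0.19, adjusted p = 0.385 from limma). Of its 4 probe sets, 3 had a difference above 0 and the dimmest, which read 24.1 to 25.9 on average, had -0.11. None was called.

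TXNRD1, the cytosolic selenoenzyme that reduces thioredoxin with NADPH, had a small difference of the same sign at all of its 3 probe sets. The brightest read 4498, 4484 and 4616 in NC and 4728, 4650 and 4640 in CTCF-OE. All CTCF-OE arrays lay above all NC arrays at each of the 3. The differences were 0.04 to 0.05 on the log2 scale, and at the brightest 0.04 (standard error 0.033, 95% interval -0.03 to 0.12, adjusted p = 0.550 from limma). Lack of overlap alone is common here: 24.7% of all genes had it, 4 of the 9 members did, and 3 arrays against 3 give p = 0.1 at the smallest in an exact two-sided permutation test.

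The regulators themselves read slightly lower in CTCF-OE without passing the test. NFE2L2 read 2720, 2507 and 2800 in NC and 2526, 2544 and 2467 in CTCF-OE at its brightest probe set, where NC replicate 2 fell among the CTCF-OE arrays. Its log2 difference was -0.09 (standard error 0.049, 95% interval -0.21 to 0.03, adjusted p = 0.406 from limma). Its other probe set read 1968, 1979 and 2044 against 1841, 1906 and 1937, without overlap, and the difference there was -0.08. KEAP1 has 1 probe set, which read 897, 902 and 857 in NC and 871, 855 and 843 in CTCF-OE. The KEAP1 groups overlapped, with a log2 difference of -0.05 (standard error 0.037, 95% interval -0.13 to 0.04, adjusted p = 0.568 from limma).

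SOD1, the copper and zinc superoxide dismutase of the cytosol, had the smallest difference of the 9 genes. At the brightest of its 3 probe sets it read 7754, 8096 and 7588 in NC and 7794, 7649 and 7721 in CTCF-OE. The 3 CTCF-OE arrays lay within the NC range. The log2 difference was -0.02 (standard error 0.037, 95% interval -0.11 to 0.07, adjusted p = 0.866 from limma), and the other probe sets had -0.02 and 0.03. Of the SOD1 probe sets 2, and of those of HMOX1 1, carry the suffix by which the manufacturer marks probes that may also bind other sequences. The suffix for probes shared by several transcripts stands on 1 probe set each of NFE2L2, TXNRD1, SRXN1 and NQO1, that of NQO1 being the called probe set.

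**Figure D2:**
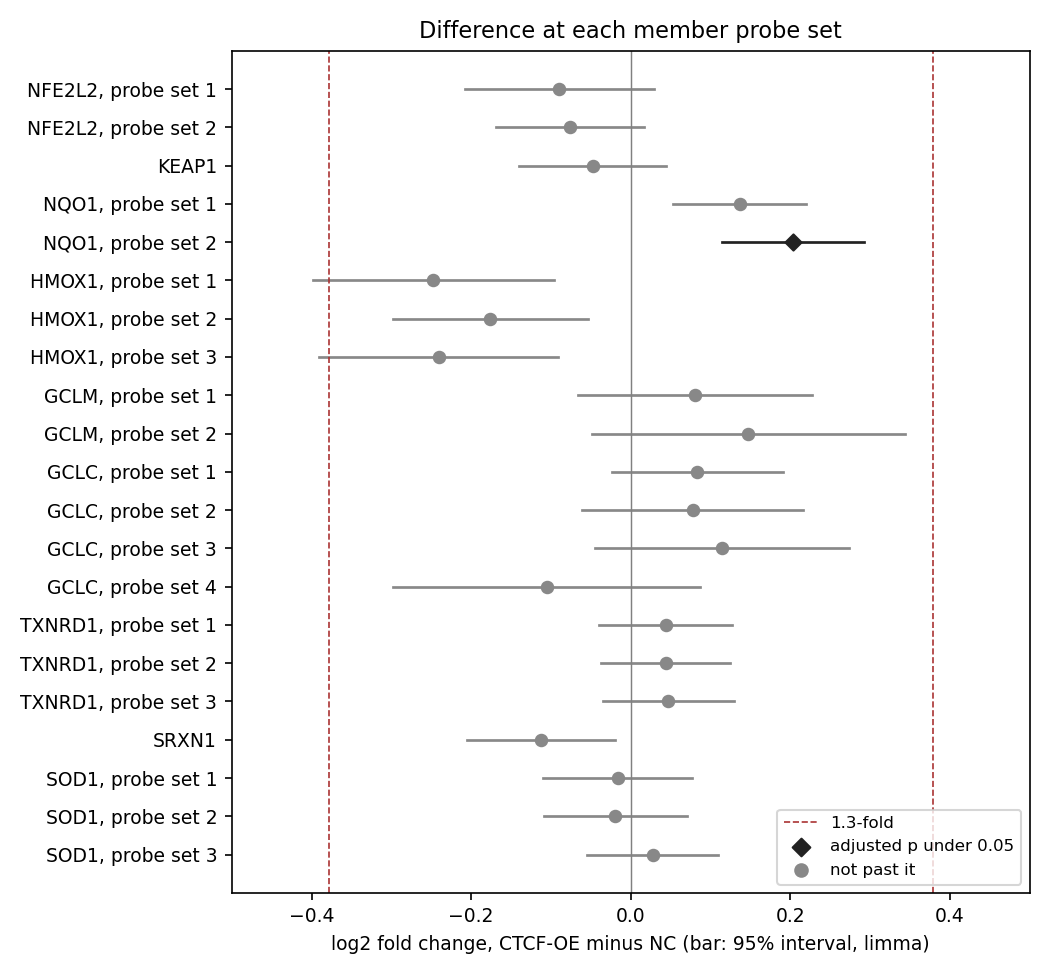
Log2 fold change (CTCF-OE minus NC) at each of the 21 member probe sets, with the 95% interval from limma, and dashed lines at a 1.3-fold change (0.38 on the log2 scale). The second NQO1 probe set, drawn as a diamond, is the only 1 past the adjusted p, and 19 of the 21 intervals lie inside the dashed lines.

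Further NRF2 targets were taken from a list of 35 genes, of which 31 were read. For this list and those below, the share called over all genes was 2.12%, with 0.722% higher and 1.4% lower. ABCC4, an export pump for organic anions and cyclic nucleotides, was the 1 gene called, and it was higher. It read 343, 341 and 357 in NC and 431, 405 and 433 in CTCF-OE at its brightest probe set. The log2 rise was 0.28 (standard error 0.041, adjusted p = 0.0246 from limma), against 0.11 to 0.15 at its 3 other probe sets, none of which was called. AKR1C1, an aldo-keto reductase, had -0.22, and SLC7A11, the cystine carrier that feeds glutathione synthesis, had -0.17 (adjusted p = 0.0753 and 0.0799 from limma). Of the 31 genes, 17 had a difference above 0 and 14 below, with a median of 0.015, beside 0 over all genes. The groups did not overlap at 9 that read higher and 6 that read lower. Without overlap, 11.4% of all genes read higher and 13.3% lower.

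Partners of NRF2 and the machinery that degrades it gave no call among 14 genes read of 16. MAFF, a small MAF partner, read 386, 345 and 405 in NC and 308, 314 and 311 in CTCF-OE. The groups were apart, and the log2 difference of -0.28 (standard error 0.061) had an adjusted p of 0.0755 from limma. CUL3, the scaffold of the ligase that KEAP1 serves, had 0.15 (adjusted p = 0.0824), and SQSTM1 (p62), which can sequester KEAP1 and is itself an NRF2 target, had -0.14 (adjusted p = 0.110). The median of the 14 genes was -0.023.

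Among 28 other antioxidant genes read of 30, 2 fell and none rose. Of the 28, 16 had a difference above 0 and 12 below (median 0.011), and the groups did not overlap at 6 that read higher and 8 that read lower. Over all genes, 11.4% read higher and 13.3% lower without overlap. SESN2, a stress-induced sestrin that restrains mTORC1, read 168, 168 and 169 in NC and 105, 105 and 101 in CTCF-OE. Its log2 fold change was -0.69 (standard error 0.034, adjusted p = 0.000773 from limma), and its other probe set had -0.60. TXNIP, which binds and inhibits thioredoxin, read 2739, 2835 and 2641 in NC and 1911, 1896 and 1926 in CTCF-OE. Its log2 fold change was -0.52 (standard error 0.038, adjusted p = 0.00276 from limma), and all 5 of its probe sets were called. Of the genes not called, MSRB3, a methionine sulfoxide reductase, had the smallest p, with a log2 difference of 0.20 (adjusted p = 0.0676 from limma). SOD3, the extracellular superoxide dismutase, had 0.03, and CCS, the copper chaperone of SOD1, had -0.12 (adjusted p = 0.819 and 0.241 from limma).

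Superoxide also has dedicated sources. Of 12 genes of NADPH oxidases and their subunits, NOX5, a calcium-regulated oxidase, was called and was higher, from 87.3, 80.7 and 87.7 in NC to 99.3, 112 and 110 in CTCF-OE at its brightest probe set (log2 difference 0.33, standard error 0.060, adjusted p = 0.0480 from limma). Its other probe sets had 0.25, which was not called, and 0.63, which was (adjusted p = 0.12 and 0.00394 from limma over probe sets). The median of the list was 0.002.

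Some oxidant defence genes also answer to ATF4, the transcription factor of the amino acid response, and SOD2 to NF-κB. Of 8 ATF4 targets, of which SESN2 and SLC7A11 stand in the lists above as well, 5 were lower (ASNS, SESN2, TRIB3, DDIT3 and CHAC1) and 0 higher (median -0.48). Of 9 NF-κB targets read, 7 were lower (IL6, TNFAIP3, NFKBIA, RELB, CCL20, NFKB1 and ICAM1) and 0 higher (median -0.30). These lists were known to be lower in these arrays when they were chosen, and no difference between lists was tested.

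**Figure D3:**
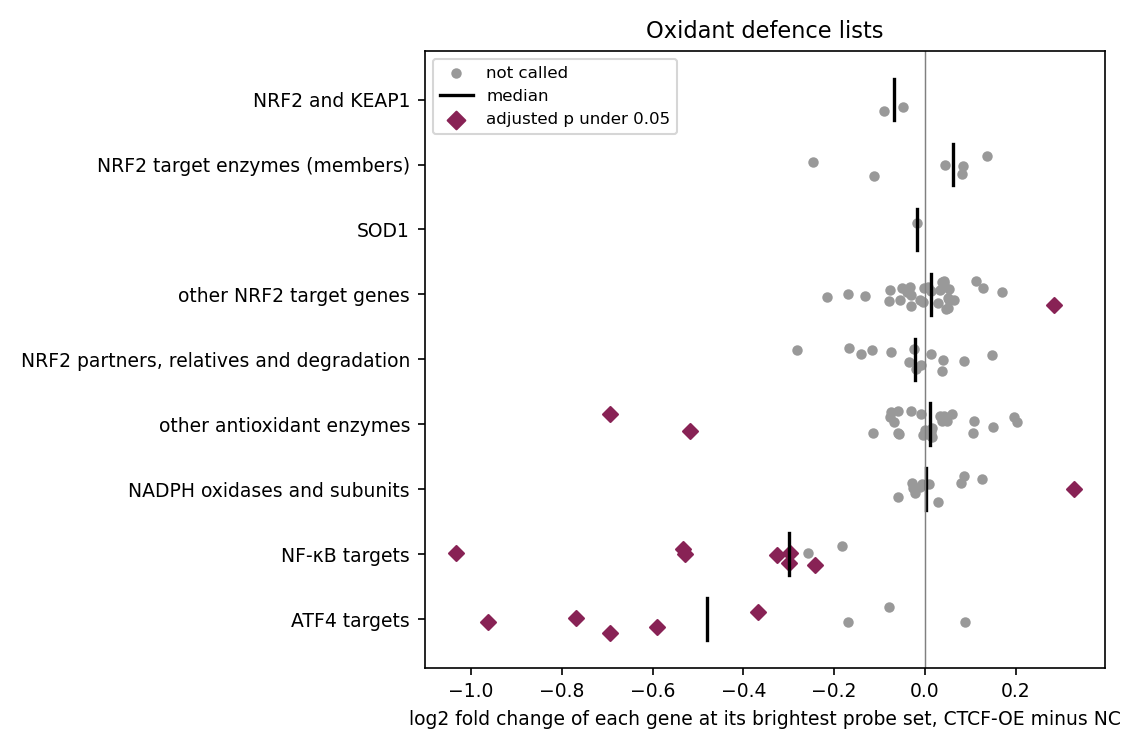
Each point is 1 gene at its brightest probe set, by its log2 fold change (CTCF-OE minus NC), in rows for each list, with the median as a vertical bar and diamonds for genes past an adjusted p under 0.05 in limma. The NRF2 lists lie around 0, with medians from -0.07 to 0.06, and the ATF4 and NF-κB rows have medians of -0.48 and -0.30.

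The genes whose pattern over the 6 arrays lay nearest to that of NQO1, the member with the smallest p, were SMAD5, KDELR3, CCDC85A, CTNNBIP1 and CARD19. Nearness was the Euclidean distance between log2 values less the NC mean, at the brightest probe set, and it was 0.0209 for SMAD5 and 0.0358 for CARD19. Their log2 differences were 0.13 to 0.15, beside 0.14 for NQO1, which follows from choosing them by a distance that takes in the group difference. CCDC85A read only 6.28 to 7.18, so its place rests on very dim values.

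**Figure D4:**
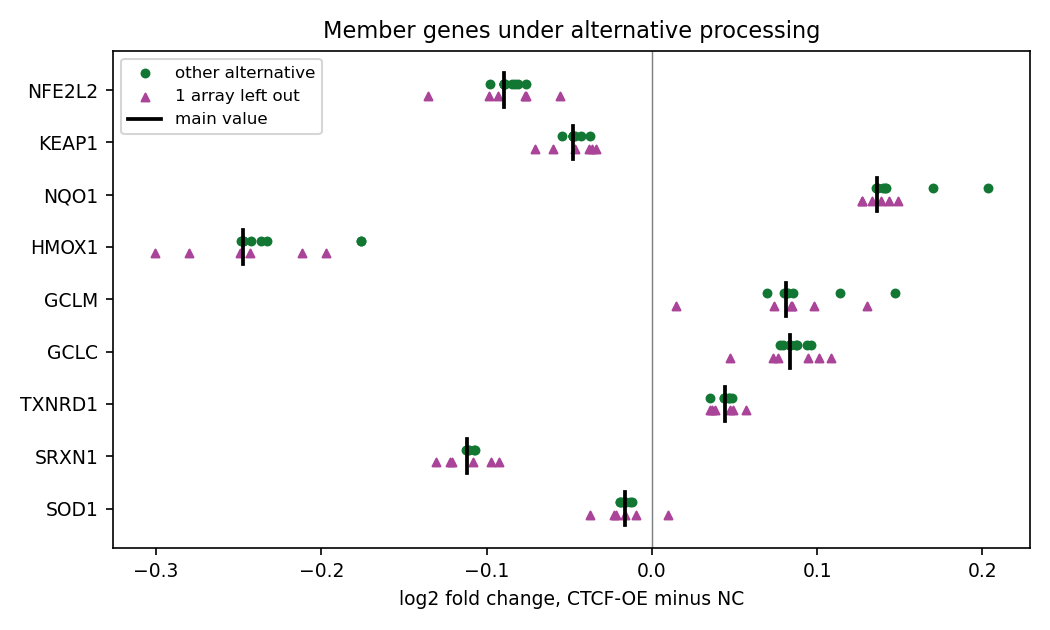
Log2 fold change (CTCF-OE minus NC) of each member gene in the main analysis (bar), with 1 array left out (triangles) and under the other alternatives (circles). The sign was kept throughout for 8 of the 9 genes, and SOD1 crossed 0 without NC replicate 2.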

How the data were processed

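The authors labelled RNA of 6 samples with biotin and read each on a PrimeView array. They deposited linear probe set intensities whose medians are nearly equal, so arrays were scaled before deposit. The software, background correction and normalization are not given in the sources used here. With 3 arrays in a group, their number limits the precision.

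Without 102 control probe sets, 49293 remained. Log2(intensity + 1) was fitted with limma 3.58.1 (R 4.3.3; group as the single term, Benjamini-Hochberg adjustment over all probe sets). A second fit took 18132 genes at their brightest probe set; 44988 probe sets had 1 symbol, 1832 several and 2473 none listed. The added 1 makes fold changes of dim probe sets slightly smaller. The procedure was tested on simulated data. Members and lists were chosen with earlier results of these data known. All members are named, of each other list the called genes or, with none called, up to 4 with the smallest p, and the 5 genes nearest to 1 member in pattern. AKR1C1, SLC7A11, MSRB3, SOD3, CCS, BACH1 and the markers named were chosen after their values were seen. Promoters came from RefSeq (GRCh38.p14). Alternatives changed the pseudocount, filter, scaling, variance model, test, block, arrays and probe set. Figures were drawn with matplotlib 3.10.9.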

Additional observations from a re-analysis of the deposited data

How the results depend on the processing

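Of the 9 member genes, 8 kept the sign of their difference under every alternative run; SOD1, not called in any, ranged from -0.0372 without NC replicate 3 to 0.0095 without NC replicate 2 on the log2 scale. An intensity trend called 1 member gene higher and 2 lower, and 2 member probe sets higher and 3 lower. It called 8% of all genes and 7.02% of all probe sets. A pseudocount of 16 called 1 member gene and 2 member probe sets higher, where 4.57% of all genes and 4.53% of all probe sets were called. The second brightest probe set of each gene called 1 member gene higher, where 2.51% of 11734 genes were called. With that pseudocount and with the second brightest probe set the gene was NQO1. No member probe set was called higher without a pseudocount, with the methods' t-test (0 adjusted, and 0 at an unadjusted p under 0.05 and over 1.3-fold), with a replicate block (0) or with the 1.3-fold threshold (0). Of all probe sets, 1.84% were called without a pseudocount and 1.21% with the adjusted t-test, in either direction. The share was 0.148% with the block and 0.637% with the 1.3-fold threshold in limma. With any 1 array left out, 0 member probe sets and 0 member genes were called in either direction. Those fits, with fewer arrays, called 0.3% to 0.779% of all probe sets and 0.364% to 0.932% of all genes.

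Over all probe sets, 628 were lower and 396 higher. These became 1272 and 963 with a pseudocount of 16, 1902 and 1560 with an intensity trend, 365 and 232 with the methods' t-test, 255 and 115 with that test unadjusted and over 1.3-fold, and 220 and 94 at 1.3-fold in limma. Without the dimmest 20% of probe sets 633 were higher. Leaving out 1 array gave 115 to 257 lower and 33 to 127 higher. Over all genes, 253 were lower and 131 higher. These became 517 and 312 with a pseudocount of 16, 821 and 630 with an intensity trend, 97 and 16 with the methods' t-test unadjusted and over 1.3-fold, and 85 and 13 at 1.3-fold. Without the dimmest 20% of probe sets 200 genes were higher. Leaving out 1 array gave 57 to 121 lower and 5 to 48 higher. The causes of these shifts were not tested, other than fewer arrays and a stricter threshold by construction.

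Nothing in the sources pairs the replicate numbers, and arrays of the same number did not deviate together (correlations 0.012, 0.005 and 0.009 over probe sets). With a replicate block 62 probe sets were lower and 11 higher, and 51 genes lower and 4 higher; the NQO1 probe set had an adjusted p of 0.147 from limma. KEAP1 and SRXN1 have 1 probe set each, so a second brightest could not be used.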
